A study of Rattus norvegicus with 6 samples.

Results

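Long non-coding RNA genes are transcribed into RNA that is spliced and often polyadenylated like a messenger RNA but is not known to be translated. Some of these RNAs act at the gene next to them, many start back to back with a coding gene from a shared promoter region, and others stay in the nucleus, where they bind RNA-binding proteins such as those of paraspeckles. In the heart, several long non-coding RNAs are known from work on cardiomyocyte growth and chamber formation. TRIM28 is a nuclear co-repressor that KRAB zinc finger proteins bring to DNA, where it recruits the histone methyltransferase SETDB1 and silences repeats and some genes.

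The genes described here are the rows of the deposited table that carry an Ensembl rat gene identifier and the class lincRNA (long intergenic non-coding RNA), lncRNA, antisense, sense_intronic or processed_transcript, with H19 and Meg3 left out. There were 3249 such genes among 34510 rows, beside 22250 protein-coding genes. They comprised 3090 lincRNA, 81 processed_transcript, 59 antisense and 19 sense_intronic genes, and no row had the class lncRNA. RNA of cardiomyocytes from the ventricles of newborn rats, kept in culture, was sequenced in 6 libraries, 3 titled Bgal and 3 titled Trim28. The design text says that cells were given an adenovirus carrying TRIM28. What Bgal stands for and which virus that group got is left unsaid in the labels, as are strain, dose, time and batch. Nothing in the labels says whether the 3 libraries of a group came from separate isolations, so p-values measure the spread between these libraries, which may be technical. The study's stated question was how TRIM28 acts in cardiomyocyte ferroptosis, an iron-dependent form of cell death.

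Values are FPKM, the fragments on a gene divided by its length and by the total of its library. The libraries held 26146166 to 34593292 fragments on genes, called reads below. Trim28 itself, the gene the virus carries, stood at 81.6, 87.8 and 77.6 FPKM in Bgal and at 2923, 2890 and 980 FPKM in Trim28, and the third Trim28 library was the lowest of its group. Cardiomyocyte markers were present in every library, with 9 of 10 listed genes found and a summed level of 16306 to 17338 FPKM in Bgal and 16413 to 17744 FPKM in Trim28. The protocol enriched RNA with a poly(A) tail, which selects against long non-coding RNAs that lack one. Genome coordinates below are those of the deposited table, whose genome build none of the sources used here names.

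Most of the long non-coding RNA genes had few or no reads. Of the 3249 genes, 1879 were at 0 in every library and 380 were above 0 in every library. A gene was tested when it reached at least 0.5 FPKM in at least 3 libraries, which 224 genes did, namely 165 lincRNA, 41 processed_transcript, 12 antisense and 6 sense_intronic genes. The other 3025 were not tested, and 1146 of these had a value above 0 in some library. Of the 224 tested genes, 157 were at 0.5 FPKM or more in all 6 libraries, 5 passed only through the Bgal libraries and 5 only through the Trim28 libraries. Named by clone were 184 genes, by a placeholder (LOC or RGD) 19, and by another symbol 21.

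The class label was not matched by the description or by RefSeq for every tested gene. The deposited table describes 557 of the 3249 genes, and 88 of the 224 tested ones, with the name of a protein. Among the tested genes these were 38 of 41 processed_transcript, 47 lincRNA and 3 antisense genes. Of 30 tested genes that matched a RefSeq gene (assembly GRCr8) by symbol, 12 are long non-coding there and 18, among them Snx3, Bves, Arid5b and Grm4, are protein-coding. Genes with a protein description are therefore named as such below, and counts are also given without them.

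Several of the genes that changed start back to back with a coding gene, and promoter windows of such genes are printed to show the sequence next to these starts. Each window runs from 250 bases before to 50 bases after the start of the named gene on the strand given, 300 bases in all, taken from RefSeq with its assembly GRCr8. Capitals mark a GC box (GGGCGG, the site of Sp1-type factors) or a CCAAT box (CCAAT, the site of NF-Y), read on both strands, so CCGCCC and ATTGG are the same motifs on the other strand. LOC100910237, itself a long non-coding RNA gene, lies at chr1:23499840-23500139 on the minus strand. The coding partners of 4 other long non-coding RNA genes follow: Nacc2 at chr3:29344725-29345024, Cct6a at chr12:32519023-32519322, Dxo at chr20:3999988-4000287 and Hand2 at chr16:37931439-37931738, each on the minus strand of that assembly (the deposited table has Dxo on the plus strand of its own build).
LOC100910237: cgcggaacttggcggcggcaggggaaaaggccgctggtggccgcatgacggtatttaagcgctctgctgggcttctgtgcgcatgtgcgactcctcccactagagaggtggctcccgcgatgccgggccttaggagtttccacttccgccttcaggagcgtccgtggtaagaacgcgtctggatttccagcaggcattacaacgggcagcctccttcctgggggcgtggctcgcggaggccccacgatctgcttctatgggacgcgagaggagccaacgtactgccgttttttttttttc
Nacc2: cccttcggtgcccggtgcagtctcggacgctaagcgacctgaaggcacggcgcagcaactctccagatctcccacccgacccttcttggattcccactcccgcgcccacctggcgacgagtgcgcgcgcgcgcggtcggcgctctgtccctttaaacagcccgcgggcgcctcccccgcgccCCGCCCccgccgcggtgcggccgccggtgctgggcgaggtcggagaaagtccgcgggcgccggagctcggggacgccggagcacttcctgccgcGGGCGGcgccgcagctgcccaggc
Cct6a: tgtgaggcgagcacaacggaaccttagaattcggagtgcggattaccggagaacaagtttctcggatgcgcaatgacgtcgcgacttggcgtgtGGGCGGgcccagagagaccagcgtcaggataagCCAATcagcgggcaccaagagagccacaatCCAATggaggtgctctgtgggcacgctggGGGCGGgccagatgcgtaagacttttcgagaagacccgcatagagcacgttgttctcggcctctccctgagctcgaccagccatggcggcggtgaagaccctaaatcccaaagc
Dxo: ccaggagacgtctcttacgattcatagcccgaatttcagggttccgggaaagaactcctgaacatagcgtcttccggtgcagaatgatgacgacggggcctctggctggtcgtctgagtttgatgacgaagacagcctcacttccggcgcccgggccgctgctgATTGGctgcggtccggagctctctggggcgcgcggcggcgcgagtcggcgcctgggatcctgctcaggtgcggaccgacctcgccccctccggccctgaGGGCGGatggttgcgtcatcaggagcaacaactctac
Hand2: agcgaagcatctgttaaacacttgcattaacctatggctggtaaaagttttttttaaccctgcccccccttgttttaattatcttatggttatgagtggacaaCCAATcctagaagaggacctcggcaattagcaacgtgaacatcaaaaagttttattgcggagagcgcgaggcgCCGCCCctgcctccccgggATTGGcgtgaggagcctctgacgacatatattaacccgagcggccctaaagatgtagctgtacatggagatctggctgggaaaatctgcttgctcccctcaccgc
The LOC100910237 window shares 285 bases with the window of Rps12, a ribosomal protein gene, and these are identical on opposite strands. The Hand2 window does not reach the start of its long non-coding partner, which the deposited table puts 1047 bases away. The LOC100910237 window holds none of the motifs searched. The Nacc2 window holds 2 GC boxes, Cct6a 2 GC boxes and 2 CCAAT boxes, Dxo 1 of each, and Hand2 1 GC box and 2 CCAAT boxes. Over all 33469 promoter windows, 33.1% hold a GC box, 37.5% a CCAAT box and 14.2% a TATA box (TATAAA), which none of these windows holds. The G and C content was 61.3% for LOC100910237, 75.3% for Nacc2, 59.0% for Cct6a, 63.7% for Dxo and 49.3% for Hand2, against a median of 51.7% over all windows. They held 27, 46, 24, 30 and 14 CpG dinucleotides in that order, against a median of 7. A match is a description of letters and not a sign that a factor binds.

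As a class, these genes were low. The median tested gene had a mean level of 1.96 FPKM, against 10.4 FPKM for tested coding genes, 114 were under 2 FPKM and 29 were over 10 FPKM. They were also shorter, with a median length of 1009.5 bases against 2347 bases, and the median standard error of a log2 change was 0.13 against 0.0843. All 3249 genes together took 0.335%, 0.333% and 0.344% of gene reads in Bgal and 0.353%, 0.358% and 0.365% in Trim28. Every Trim28 library lay above every Bgal library. The means were 0.338% ± 0.00607 (SD, n = 3) and 0.359% ± 0.00607 (SD, n = 3), and an exact two-sided permutation test gave p = 0.1, the smallest this design allows. Over the genes with no protein description the share was 0.104% in Bgal and 0.105% in Trim28 (exact permutation p = 0.9). The summed level was 1486 ± 64.9 FPKM in Bgal and 1565 ± 10.7 FPKM in Trim28 (SD, n = 3, exact permutation p = 0.2).

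Of the 224 tested genes, 29 rose and 45 fell in the Trim28 libraries at an adjusted p under 0.05, and 150 did not pass. Without the 10 that passed the filter through 1 group only, 26 rose and 41 fell of 214 (31.3% called). The test was limma on log2(FPKM + 1), adjusted by the Benjamini-Hochberg method over all 14808 tested genes. The 74 called genes are 33.0% of those tested, against a background of 41.2% over all tested genes (20.1% higher and 21.1% lower) and 43.6% over tested coding genes. The split by class was 15 up and 37 down for lincRNA, 11 up and 6 down for processed_transcript, 2 up and 2 down for antisense, and 1 up and 0 down for sense_intronic. The median log2 change was -0.06 over the tested genes and -0.02 over all tested genes, and it is the same with the 1 gene at 0 reads in Trim28 set at its bound. Without the genes that have a protein description, 15 rose, 32 fell and 89 did not pass (34.6% called), with a median log2 change of -0.08. Those with one gave 14 up, 13 down and 61 not passing (30.7% called), with a median of -0.02. The 2 groups did not overlap for 102 genes, 45.5% of those tested, against 53.8% over all tested genes. On the log2(FPKM + 1) scale, which understates the change of low genes, 1 gene rose and 7 fell by at least 2-fold.

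**Figure D1:**
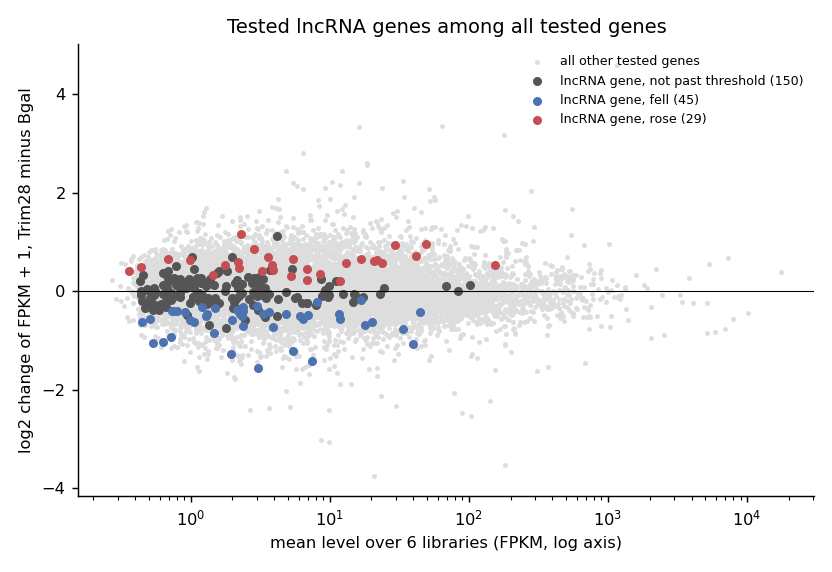
The log2 change of FPKM + 1 between Trim28 and Bgal (vertical axis) is plotted against the mean level over 6 libraries in FPKM (log axis) for each tested gene. Grey points are all other tested genes, and larger points are the 224 long non-coding RNA genes, 29 red (rose), 45 blue (fell) and 150 dark (not past the threshold), most of them at the low end of the level axis.

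The 8 largest falls picked by a fixed naming rule (given with the processing) were all in genes with no protein description. For falls and rises alike, that rule takes only genes whose groups do not overlap. AABR07065124.1 (ENSRNOG00000055422), a lincRNA gene on chromosome 6 from 110890932 to 110892222, was at 5.02, 4.87 and 5.04 FPKM in Bgal and at 1.15, 0.305 and 1.95 FPKM in Trim28. The Bgal libraries agree closely and the Trim28 libraries are lower and more spread. Its mean fell 4.39-fold (log2 change -1.56, SE 0.27, adjusted p = 0.00324, limma). Its nearest coding gene, Irf2bpl, lies 9718 bases away and rose, from 36.6 ± 3.59 to 47.2 ± 0.608 FPKM (SD, n = 3).

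AABR07015517.2 (ENSRNOG00000058688), on chromosome 14 from 61116674 to 61122664, was at 12.5, 9.76 and 11.5 FPKM in Bgal and at 3.27, 2.98 and 4.65 FPKM in Trim28. It fell 3.09-fold (adjusted p = 0.000449), while Dhx15, an RNA helicase gene of the spliceosome 14082 bases away, was at 57.6 ± 4.98 and 65.2 ± 1.69 FPKM (SD, n = 3, adjusted p = 0.0595). Its mean was not lower in Trim28. AC110709.2 (ENSRNOG00000056269), on chromosome 1 from 274376536 to 274381457, was at 3.01, 2.65 and 3.87 FPKM in Bgal and at 0.646, 0.687 and 0.793 FPKM in Trim28, a 4.48-fold fall (adjusted p = 0.0004). It lies 10475 bases upstream of Rbm20, on the same strand; RBM20 is the splicing factor of titin and other sarcomere genes. Rbm20 fell as well, from 77.7 ± 2.08 to 60.4 ± 0.383 FPKM (SD, n = 3, adjusted p = 0.000531). AABR07021456.1, on chromosome 13 and 24455 bases from Acbd6, was at 9.07, 7.17 and 7.65 FPKM in Bgal and at 2.51, 2.21 and 4.10 FPKM in Trim28 (adjusted p = 0.00177). Acbd6, which encodes an acyl-CoA binding protein, was at 15.1 and 15.7 FPKM and did not pass (adjusted p = 0.606).

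The most abundant of the 8 was AABR07039356.2 (ENSRNOG00000051257), on the X chromosome from 74333329 to 74337975. It was at 55.7, 51.6 and 55.8 FPKM in Bgal and at 23.6, 26.2 and 26.6 FPKM in Trim28, with reads from 650 to 1957 per library and no overlap between groups. The fall was 2.14-fold (log2 change -1.07, SE 0.06, adjusted p = 5.93e-05). It lies inside LOC680227, a coding gene on the opposite strand, which fell from 32.3 ± 1.47 to 17.6 ± 1.09 FPKM (SD, n = 3).

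The other 3 rest on few reads and passed the filter only through Bgal, the group where they are high, so they had to differ and their p-values are not given. AABR07017159.1 had 7, 6 and 12 reads in Bgal and 0 reads in each Trim28 library. Taking 3 reads per library as the limit that a count of 0 allows, it was at least 2.31-fold lower in Trim28. That limit covers counting error only. AABR07006657.1 was at 1.70, 0.757 and 1.12 FPKM in Bgal and at 0.197, 0 and 0 FPKM in Trim28. AABR07072841.1 was at 1.10, 1.69 and 0.999 FPKM in Bgal and at 0.176, 0.374 and 0 FPKM in Trim28, and its partner Nacc2 is taken up with the divergent pairs.

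Of the 8 largest rises, 6 were in genes with no protein description. AC119762.7 (ENSRNOG00000062168), on chromosome 2 from 187902007 to 187902546, was at 1.35, 1.15 and 0.647 FPKM in Bgal and at 4.45, 3.60 and 2.65 FPKM in Trim28. Its mean rose 3.40-fold (log2 change 1.15, SE 0.19, adjusted p = 0.00278) and the groups did not overlap. Rab25, a gene of epithelial vesicle recycling that ends 761 bases away on the opposite strand, was too low to be tested, at 0 to 0.0543 FPKM in Bgal and 0.142 to 0.390 FPKM in Trim28. AABR07072236.1 (ENSRNOG00000062181), on chromosome 11 from 61994181 to 61995549, was at 31.2, 31.4 and 31.6 FPKM in Bgal and at 54.5, 52.2 and 50.1 FPKM in Trim28 (1.66-fold, adjusted p = 8.43e-05). It lies inside Gramd1c on the opposite strand, a sterol transfer protein gene that was at 0.228 FPKM in Bgal and 0.392 FPKM in Trim28 and not tested. The long non-coding RNA gene was far above its host in every library.

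AABR07058656.1 (ENSRNOG00000053803), on chromosome 7 from 129842147 to 129856582, was at 1.52, 2.15 and 1.64 FPKM in Bgal and at 4.11, 4.33 and 3.52 FPKM in Trim28 (2.25-fold, adjusted p = 0.00147). It ends 3532 bases before the start of Pim3, a serine/threonine kinase gene, on the same strand, and Pim3 rose from 24.2 ± 0.791 to 40.6 ± 1.12 FPKM (SD, n = 3, adjusted p = 8.71e-05). AABR07065531.5, on chromosome 6, was at 3.52, 4.55 and 3.94 FPKM in Bgal and at 7.44, 6.15 and 7.05 FPKM in Trim28 (adjusted p = 0.00258). Its nearest coding gene, AABR07065531.3, lies 34247 bases away and was too low to be tested, at 0 FPKM in Bgal and 0.0145 to 0.0158 FPKM in Trim28. AABR07039104.1, on the X chromosome, was at 12.5, 10.2 and 16.4 FPKM in Bgal and at 23.0, 21.6 and 17.8 FPKM in Trim28 (adjusted p = 0.016). The highest Bgal and the lowest Trim28 library, the third of each group, came close, and the adjusted p was 0.0532 without the first Trim28 library and 0.0507 without the second.

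**Figure D2:**
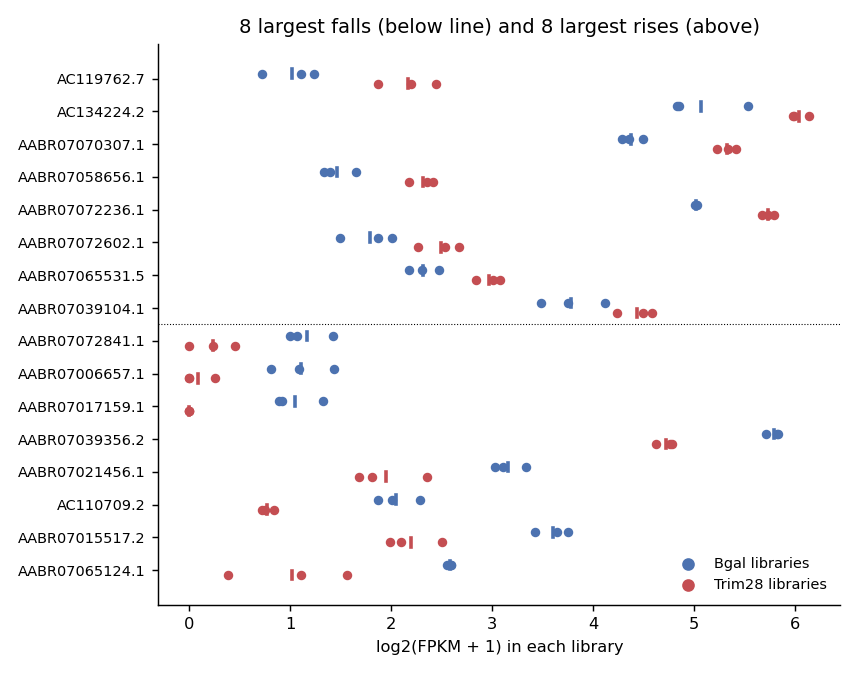
Each row is a gene and each point 1 library, at its log2(FPKM + 1) level, with short bars at the group means, blue for Bgal and red for Trim28. The 8 largest falls lie below the dotted line and the 8 largest rises above it. In each row all 3 libraries of a group lie to the same side of the other group, which the naming rule required.

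The most abundant long non-coding RNA genes with no protein description lay side by side on the minus strand of chromosome 1, on one side of Frmd8. AC134224.2 (221151827 to 221153278), AC134224.1 (221154561 to 221156910) and AC134224.3 (221158098 to 221158792) lie within a few kilobases of each other, and 54520 bases separate AC134224.3 from Frmd8. AC134224.3, the highest of all tested members, was at 116, 117 and 146 FPKM in Bgal and at 191, 182 and 173 FPKM in Trim28, a 1.44-fold rise (log2 change 0.53, SE 0.09, adjusted p = 0.00355). AC134224.2 was at 27.4, 27.8 and 45.3 FPKM in Bgal and at 62.7, 69.7 and 62.1 FPKM in Trim28, a 1.93-fold rise (log2 change 0.97, SE 0.18, adjusted p = 0.00456). AC134224.1, the longest of them, was at 89.9, 92.4 and 110 FPKM in Bgal and at 105, 111 and 103 FPKM in Trim28, and did not pass (log2 change 0.13, 95% interval -0.06 to 0.31, adjusted p = 0.23). The groups were apart for AC134224.2 and AC134224.3 and overlapped for AC134224.1.

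The third Bgal library was the highest of its group for all 3 of these genes. Without it, AC134224.1 passed (log2 change 0.22, adjusted p = 0.0143). The coding gene Frmd8, whose protein binds the iRhom cofactors of ADAM17, did not pass, at 17.0 ± 1.85 and 19.8 ± 0.731 FPKM (SD, n = 3, adjusted p = 0.0716). The difference between the 3 neighbours' changes was not tested.

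**Figure D3:**
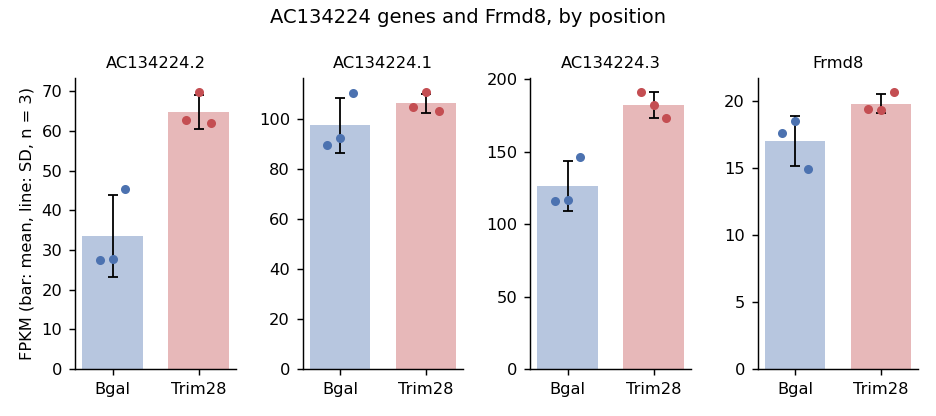
FPKM of the AC134224 genes and Frmd8 on chromosome 1, in order of position, with bars at the mean, lines for the SD (n = 3) and points for libraries; each panel has its own axis from 0. AC134224.2 and AC134224.3 are higher in all Trim28 libraries, the groups overlap for AC134224.1, and for Frmd8 they lie close together (18.5 FPKM the highest in Bgal, 19.3 FPKM the lowest in Trim28).

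Among the 5 tested members with the highest mean level, the other 2 are coding symbols of the class processed_transcript. Snx3, a sorting nexin gene, was at 84.1 ± 1.84 FPKM in Bgal and 84.1 ± 2.23 FPKM in Trim28 (SD, n = 3, adjusted p = 0.996). Bves, the gene of a membrane protein of heart and skeletal muscle, was at 66.2 ± 5.70 and 70.7 ± 1.15 FPKM (SD, n = 3, adjusted p = 0.258), and passed only without the third Bgal library (adjusted p = 0.042).

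A divergent pair is 1 long non-coding RNA gene and 1 coding gene on opposite strands whose starts face away from each other, here at most 2000 bases apart. There were 20 such tested genes, of which 6 fell, 1 rose and 13 did not pass (35.0% called, against 41.2% over all tested genes and 33.0% over all tested members). Without AABR07072841.1, which passed the filter only through Bgal, 5 of 19 fell and 1 rose. The 7 that were called start 74 to 1047 bases from their partner, and their coding partner rose in 0 pairs, fell in 2 (1 of them that of AABR07072841.1) and did not pass in 5. With 18 partners tested, 7 pairs had a log2 change of the same sign. A pair whose partner did not pass is not shown to differ from it, since the difference within pairs was not tested.

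The pair next to Hand2 had the most reads. Hand2 encodes a basic helix-loop-helix factor required for the right ventricle, and AABR07025387.1 (ENSRNOG00000052518, chromosome 16 from 36374593 to 36388331) starts 1047 bases from it. The long non-coding RNA gene was at 38.4, 42.4 and 47.0 FPKM in Bgal and at 23.0, 24.8 and 26.1 FPKM in Trim28, with no overlap. It fell 1.73-fold, from 42.6 ± 4.29 to 24.6 ± 1.56 FPKM (SD, n = 3, adjusted p = 0.000483). Hand2 was at 11.9, 15 and 14.4 FPKM in Bgal and at 12.0, 13.7 and 15.9 FPKM in Trim28, with overlapping groups (log2 change 0.01, 95% interval -0.27 to 0.28, adjusted p = 0.966). AABR07025385.1 and AABR07025386.1, which lie farther off with Hand2 as their nearest coding gene, did not pass (log2 change 0.28 and -0.28).

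LOC100910237, whose promoter window is printed above beside that of Rps12, starts 200 bases from it. It was at 2.58, 2.10 and 3.06 FPKM in Bgal and at 1.31, 1.54 and 1.24 FPKM in Trim28 (1.89-fold lower, adjusted p = 0.0084), while Rps12 was at 212 ± 21.0 and 227 ± 26.1 FPKM (SD, n = 3, adjusted p = 0.48). LOC100909912, which starts 74 bases from Ncoa3, a nuclear receptor coactivator gene, was at 7.78, 7.66 and 8.15 FPKM in Bgal and at 3.71, 5.93 and 5.50 FPKM in Trim28 (adjusted p = 0.0161). Ncoa3 was at 8.30 and 9.19 FPKM and did not pass (adjusted p = 0.185). AC141220.3, 543 bases from Upf2, a nonsense-mediated decay gene, was at 2.81, 3.19 and 3.44 FPKM in Bgal and at 2.02, 2.01 and 0.760 FPKM in Trim28 (adjusted p = 0.0313), while Upf2 was at 12.7 and 12.2 FPKM (adjusted p = 0.612).

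The 2 partners that fell did so by little. AABR07036010.1, 146 bases from Cct6a, fell from 1.39 ± 0.0654 to 0.603 ± 0.198 FPKM (adjusted p = 0.00854), and Cct6a, a subunit of the chaperonin TRiC, from 58.1 ± 2.11 to 51.9 ± 0.991 FPKM (SD, n = 3, adjusted p = 0.0232). Nacc2, a BTB-domain repressor gene 90 bases from AABR07072841.1, fell from 16.6 ± 0.381 to 14.8 ± 0.280 FPKM (SD, n = 3, adjusted p = 0.0455). The 1 rise was AABR07044389.1, 179 bases from Dxo, an RNA decapping gene. Its description names a protein kinase, STK19, and it went from 7.35 ± 0.825 to 9.58 ± 0.645 FPKM (SD, n = 3, adjusted p = 0.021), while Dxo was at 11.1 and 10.8 FPKM (adjusted p = 0.728).

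**Figure D4:**
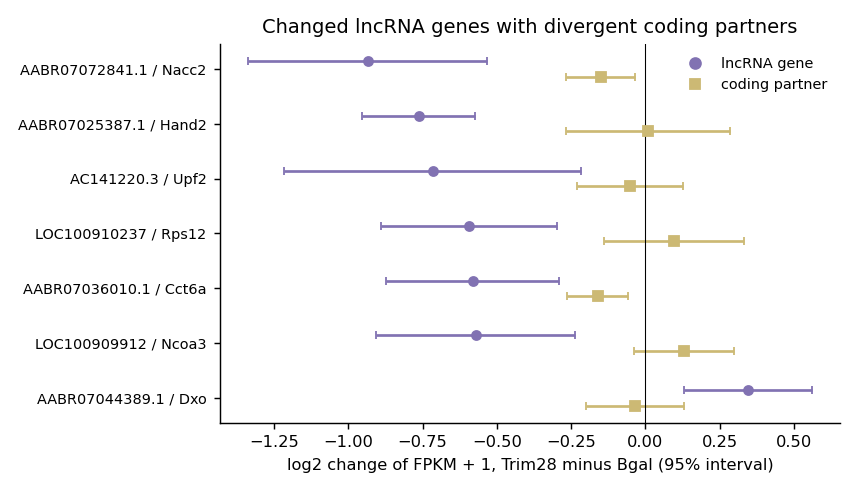
For the 7 called long non-coding RNA genes with a divergent coding partner, circles give the log2 change of FPKM + 1 (Trim28 minus Bgal) of the long non-coding RNA gene and squares that of its partner, with 95% intervals. In 6 pairs, that of AABR07072841.1 included, the circle lies below 0, while the squares lie between -0.16 and 0.13.

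Over every arrangement, 170 of the 224 tested genes had a nearest coding gene that was also tested, 158 distinct genes in all. The 2 log2 changes had the same sign in 100 pairs, and Pearson's r across the pairs was 0.24, a description over pairs that share libraries and in part neighbours. Both genes were called in 24 pairs, 15 in the same direction and 9 in opposite directions. Both counts changed when single libraries were left out. Without the first Bgal library they were 8 and 4, and without the first or the second Trim28 library 9 and 3. They were 15 and 4 without the second Bgal library, 11 and 4 without the third, and 16 and 5 without the third Trim28 library. Calls over all tested genes fell as well, from 6097 to between 4783 and 5643. The long non-coding RNA gene alone was called in 28 pairs and the coding gene alone in 53. In pairs on the same strand within 5000 bases, 20 of 27 had the same sign, with r 0.61, the highest of the arrangements. Both genes were called in 2 of these 27 pairs. For overlapping pairs r was 0.44 on opposite strands and -0.11 on the same strand. It was 0.03 for divergent pairs, 0.25 for other opposite-strand pairs within 5000 bases and 0.15 for distant pairs. Differences between arrangements were not tested. Of the 29 tested genes in this arrangement 3 rose, 2 fell and 24 did not pass. Of 21 that overlap a coding gene on the opposite strand 4 rose and 3 fell, and of 12 that overlap one on the same strand 3 rose and 0 fell. The shares called were 17.2%, 33.3% and 25.0% in that order, against 41.2% over all tested genes. Of 13 genes on the opposite strand within 5000 bases, divergent pairs aside, 3 rose and 3 fell (46.2%). Of 129 genes farther from their nearest coding gene, 15 rose and 31 fell (35.7%). Without genes that passed the filter through 1 group only, these last shares were 50% and 33.6%.

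Ncam1 and Irx3 were in same-direction pairs. AABR07070131.1 ends 478 bases from the end of Ncam1, a cell adhesion gene, on the opposite strand, and was at 26.2, 23.1 and 25.2 FPKM in Bgal and at 17.3, 13.6 and 16.2 FPKM in Trim28 (adjusted p = 0.00168). Ncam1 fell from 77.5 ± 3.60 to 44.0 ± 2.21 FPKM (SD, n = 3, adjusted p = 9.62e-05). AABR07042999.1 starts 2879 bases from Irx3, a homeobox gene of the ventricular conduction system, and was at 1.75, 1.48 and 1.27 FPKM in Bgal and at 0.705, 0.527 and 0.593 FPKM in Trim28 (2.47-fold lower, adjusted p = 0.00489). Irx3 fell from 25.4 ± 2.17 to 14.7 ± 2.95 FPKM (SD, n = 3, adjusted p = 0.00376). In both pairs the 2 genes were lower in every Trim28 library.

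Near or overlapping pairs that moved in opposite directions were 4, all with a low long non-coding RNA gene. AC141145.1, an antisense gene inside Arhgap24, fell from 0.980 ± 0.165 to 0.493 ± 0.115 FPKM while Arhgap24, a Rac GTPase-activating protein gene, rose from 5.73 ± 0.160 to 7.89 ± 0.482 FPKM (SD, n = 3). AC116220.2, antisense inside the proton pump gene Atp6v0d1, rose from 1.69 ± 0.460 to 2.74 ± 0.421 FPKM while Atp6v0d1 fell from 42.3 ± 2.55 to 31.5 ± 0.670 FPKM (SD, n = 3). AABR07004404.1, which starts 2234 bases from Arpin, an inhibitor gene of the Arp2/3 complex, rose from 0.551 ± 0.205 to 1.42 ± 0.503 FPKM while Arpin fell from 4.92 ± 0.528 to 3.42 ± 0.155 FPKM (SD, n = 3). AC123500.1 fell from 0.792 ± 0.0274 to 0.238 ± 0.313 FPKM beside LOC103694328, which rose from 11.3 to 14.8 FPKM (n = 3). All 4 calls ended with limma-voom on whole reads (adjusted p from 0.0646 to 0.0993), and without single libraries of either group the adjusted p reached 0.0846 to 0.116. The sources used here do not give the counting's strand setting, so reads of the overlapping genes may have been split between them.

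**Figure D5:**
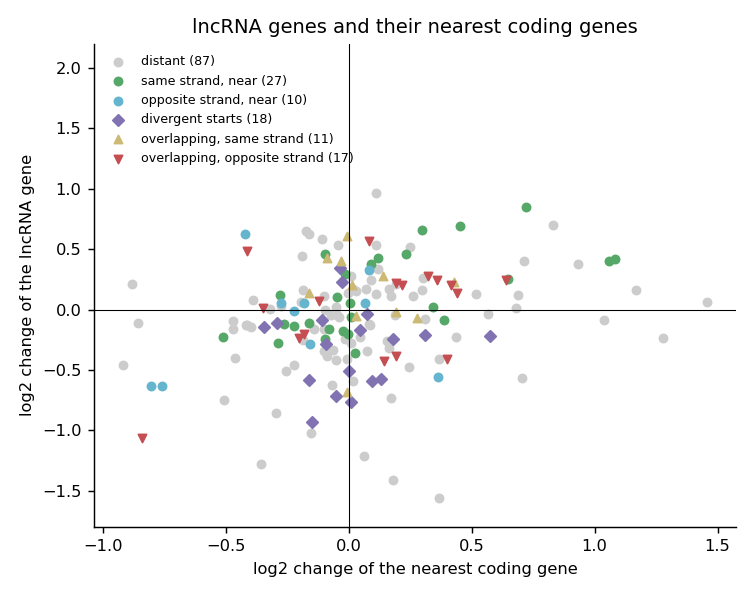
Each point is 1 of 170 pairs, with the log2 change of the nearest coding gene on the horizontal and of the long non-coding RNA gene on the vertical axis, coloured by arrangement with the number of pairs in the key. The points spread over every combination of signs. Equal signs are found in 100 of the 170 pairs, and in 20 of the 27 same-strand pairs within 5000 bases.

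The rows with a protein description that are named here were chosen after their values were seen. AABR07070307.1, AABR07070310.1 and AABR07070312.1, on the minus strand of chromosome 8, are all described as THSD4, a matrix protein of microfibrils, and the first and second overlap. All 3 rose: from 19.9 ± 1.57 to 39.1 ± 2.62 FPKM (adjusted p = 0.000142), from 10.3 ± 0.544 to 16 ± 1.74 FPKM (adjusted p = 0.00176) and from 16.9 ± 1.26 to 26.7 ± 2.35 FPKM (SD, n = 3, adjusted p = 0.001). AABR07072602.1, described as fibrillin-2, rose from 2.50 ± 0.614 to 4.66 ± 0.792 FPKM, and the coding gene Fbn2 34592 bases away on the same strand rose from 3.62 ± 0.276 to 7.23 ± 0.802 FPKM (SD, n = 3). AABR07068316.1, described as collagen alpha-3(VI), rose from 1.26 ± 0.0285 to 2.28 ± 0.159 FPKM (SD, n = 3, adjusted p = 0.00357). Rows described as the matrix proteins nidogen-2 (AABR07071697.1, log2 change -0.17, adjusted p = 0.311) and tenascin-X (AABR07044388.2, log2 change 0.28, adjusted p = 0.0626) did not pass. In the same libraries 9 of 10 fibroblast markers rose (values below). AABR07001382.1, described as nesprin-1 and the member with the most reads, rose from 11 ± 0.319 to 12.8 ± 0.561 FPKM (SD, n = 3, adjusted p = 0.0266).

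Arid5b, a chromatin regulator gene, rose from 19 ± 2.18 to 28.6 ± 1.84 FPKM and Grm4, a glutamate receptor gene, from 16.3 ± 1.40 to 25.4 ± 1.21 FPKM (SD, n = 3, adjusted p = 0.00212 and 0.000706). Each of these 2 rows overlaps another coding gene, Tmem26 and Ppil1, neither of which passed (adjusted p = 0.72 and 0.953). AABR07025277.1, described as palladin, an actin-bundling protein, fell from 22.4 ± 2.18 to 13.6 ± 1.12 FPKM (SD, n = 3, adjusted p = 0.00102). AABR07012475.2 is described as SETDB1, the methyltransferase that TRIM28 recruits, and fell from 2.78 ± 0.444 to 1.94 ± 0.229 FPKM (SD, n = 3, adjusted p = 0.0451). The coding row of Setdb1 on the same chromosome was at 11.4 and 11.3 FPKM (adjusted p = 0.932). Of 33 members with a tested coding row of the same protein, 26 on the same chromosome, both rows were called in 5, in 4 of these in the same direction.

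TRIM28 is known as a silencer of retrotransposons, and 12 members are described as the LINE-1 ORF2 protein. Only 2 of them passed the filter. AABR07041096.1 was at 3.23, 3.32 and 3.69 FPKM in Bgal and at 2.59, 2.75 and 2.46 FPKM in Trim28, a 1.31-fold fall (adjusted p = 0.0332). AABR07001389.1 was at 0.369, 0.936 and 1.12 FPKM in Bgal and at 0.873, 0.965 and 1.57 FPKM in Trim28 and did not pass (adjusted p = 0.357). Reads of such repeats match many copies, so these values are uncertain.

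Of the long non-coding RNAs with a name in the literature that were listed for this work, Tug1 alone was among the tested members. Tug1 (ENSRNOG00000051135), known for binding chromatin repressors, was at 10.3, 9.91 and 10.4 FPKM in Bgal and at 9.28, 9.01 and 10.4 FPKM in Trim28, with overlapping groups. It did not pass (log2 change -0.09, 95% interval -0.25 to 0.08, adjusted p = 0.371), nor did its divergent partner Morc2, a gene of heterochromatin silencing (14.8 and 13.7 FPKM, adjusted p = 0.192). Kantr, chosen after its values were seen, was at 0.638 ± 0.340 and 0.706 ± 0.287 FPKM (SD, n = 3, adjusted p = 0.817).

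Some tested genes differed more between libraries of a group than between groups. AC098547.1, a processed_transcript described as BRD2, was at 0.774, 4.78 and 0.939 FPKM in Bgal and at 1.17, 8.66 and 8.64 FPKM in Trim28 (log2 change 1.11, SE 0.67, adjusted p = 0.223). AABR07042514.3 was at 0, 1.11 and 0.216 FPKM in Bgal and at 3.55, 1.23 and 0.0863 FPKM in Trim28 (adjusted p = 0.309). In both, 1 or 2 libraries carry the difference of the means. These genes, and the untested ones that follow, were chosen after their values were seen. Among the untested genes, AABR07000382.1 was at 4.44 FPKM in the first Bgal library and at 0.0892 to 0.155 FPKM in the others, AC141521.1 at 2.2 FPKM in the third Bgal library and at 0.0914 to 0.233 FPKM elsewhere, and AABR07061839.1 at 3.18 FPKM in the third Trim28 library and at 0 to 0.591 FPKM elsewhere. Each of these is high in a single library.

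The proteins that handle such RNAs were taken from lists chosen with earlier results of these data known. Over all tested genes, the background for these lists, 41.2% were called, 20.1% higher and 21.1% lower. Of 14 paraspeckle proteins and nuclear partners of long non-coding RNAs, all tested, 8 fell, 0 rose and 6 did not pass. Their median log2 change was -0.30, against -0.02 over all tested genes. Rbm14, a paraspeckle assembly gene, fell from 17.7 ± 2.54 to 9.63 ± 1.36 FPKM (SD, n = 3). The core paraspeckle genes Pspc1, Sfpq and Nono fell from 21.7 to 13.4, from 69.7 to 54.9 and from 99.3 to 79.8 FPKM, with adjusted p of 0.00154, 0.000969 and 0.00131. Of 22 tested genes of the nuclear exosome and the decay of non-coding transcripts, 2 rose, 0 fell and 20 did not pass (median log2 change -0.02): Upf1, the helicase of nonsense-mediated decay, rose from 23.9 to 30.1 FPKM and Exosc10, a nuclease of the exosome, from 21.7 to 25.5 FPKM. Of 9 tested proteins of snoRNA particles, Dkc1 rose, from 27.2 to 39.5 FPKM, and Snu13, Nop10 and Nufip1 fell, Snu13 from 70.5 to 46.6 FPKM.

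Markers of other cell types in these cultures moved with the groups. Of 10 fibroblast markers 9 rose and 0 fell, with a summed level of 554 to 576 FPKM in Bgal and 1020 to 1087 FPKM in Trim28. Of 10 smooth muscle and pericyte markers 8 rose and 1 fell (808 to 1058 against 1645 to 1744 FPKM). All 8 tested macrophage and leukocyte markers rose (31.2 to 32.4 against 72.7 to 74.4 FPKM). Among them Adgre1 (mean 0.107 FPKM in Bgal and 0.746 in Trim28) passed the filter only through Trim28, so it had to differ. The same holds for Kcnj8 of the pericyte list (0.403 and 0.935 FPKM). Of 5 tested endothelial markers 3 rose and 1 fell (42.3 to 50.9 against 94.8 to 97.7 FPKM). Most of that sum was Eng, at 33.0 FPKM in Bgal and 82.3 in Trim28. Flt1 and Tek also rose, at lower levels, and Kdr fell from 8.07 to 6.06 FPKM. Cdh5, Emcn, Vwf and Robo4 were too low to be tested. Of 9 tested cardiomyocyte markers 3 rose and 4 fell. The background for these marker counts is 20.1% higher and 21.1% lower over all tested genes. No marker found in the table was at 0 in every library. Their part in the changes of the long non-coding RNA genes was not tested, and in bulk samples fewer cells of a type and less RNA per cell cannot be told apart.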

How the data were processed

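The authors deposited 1 table of FPKM values per gene and library. Libraries were made from poly(A) RNA with strand marking by dUTP and read in pairs, per the labels' protocols. HISAT2 2.0.5 and DESeq2 were used, per the submitters' processing notes; the sources used here name no counting tool, strand setting or genome build. FPKM times gene length gave whole reads, within 0.01, for 100% of values in each library, and these reads gave library totals and shares. The table had 0 columns of other samples.

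Genes reaching 0.5 FPKM in 3 or more libraries were fitted as log2(FPKM + 1) with limma 3.58.1 in R 4.3.3 (intensity trend, Benjamini-Hochberg over all tested genes, threshold 0.05). The fit was also run on simulated counts with few changed genes and the same fixed dispersion for every gene. That setting is simpler than these libraries, so it does not measure the error rate here. Exact permutation tests over libraries used SciPy 1.17.1. Alternatives were a pseudocount of 0.1 or 0.5, other filters, TMM rescaling, limma-voom on the whole reads, a replicate block and leaving out each library. The nearest coding gene is the one with the smallest gap between gene bodies on either strand.

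Named are the literature-named members on a list, the 8 largest rises and 8 largest falls past the threshold (the higher group at 1 FPKM or more, groups not overlapping), the 5 highest members, and near or overlapping pairs past the threshold in both genes (up to 5 in each direction). Divergent pairs past the threshold, protein-described rows and other genes outside this rule were chosen after their values were seen. Members and lists were chosen with earlier results of these data known. Promoter windows came from RefSeq, GRCr8, where 24 tested members matched by symbol. Libraries within a group differed beyond counting noise (chi-square per degree of freedom 6.53 to 17.0), and none were merged. Some genes of the lists and some neighbouring genes are not reported here.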

Additional observations from a re-analysis of the deposited data

How the results depend on the processing

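No call among the 27 named genes reversed direction under the alternatives that tested it (the filter of 1 FPKM tested 21), while Snx3, which was not called, lay on either side of 0. The number of called members was 74 and stayed between 64 and 79 under the filters, pseudocounts, TMM rescaling, limma-voom and the replicate block, and limma-voom called 73 members (62 of the 74) and 6560 genes in all. Without a single library it ranged from 51 to 68, with 20 to 31 up and 30 to 37 down, and over all genes from 4783 to 5643 against 6097. With no protein description 47 members were called, 15 of them higher, and among members that overlap no other row 17 were higher. Same-direction pairs numbered 15 in the report, 7 over pairs more than 5000 bases apart, and 8 to 16 without a single library; opposite-direction pairs numbered 9, 4 with the filter of 1 FPKM, and 3 to 5 without a single library. The replicate number as a block gave 65 called members and 5666 genes. Deviations of same-numbered libraries had correlations of -0.0164, 0.134 and 0.00915, and the numbers were not taken as pairs. The 0.134 of the second libraries was the highest between any Bgal and any Trim28 library. The first Bgal library correlated best with the third Trim28 library (0.0579), and the third Bgal library with the first Trim28 library (0.0839). Depth limits the low genes: 114 of 224 tested members were under 2 FPKM, and 1 read on a gene of the members' median length was worth 0.0279 to 0.0378 FPKM.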
